A study of Mus musculus with 48 samples.

Results

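The hippocampi of 6 daughters whose dams drank lead plus manganese were compared with those of 6 control daughters, which together make up 12 of the 48 RNA sequencing libraries of the study. The labels' sex and treatment fields chose the libraries, and no measured value entered the choice. All animals were of CD-1, an outbred mouse stock in which littermates and unrelated animals differ in genotype, and all were 2 months old. The Pb + Mn dams received 100 ppm lead and 2 g/L manganese in their drinking water from 2 weeks before mating until the pups were weaned at postnatal day 21, a span given as 8 weeks. The control daughters carry the label control, with no further word on their water. Offspring of dams given Pb (100 ppm) or Mn (2 g/L) alone, and sons of all 4 treatments, served as further groups of 6 each. The labels name no litters or dams, so animals of 1 group may be siblings. The p-values for genes measure only the spread between animals within groups, estimated over all 48 libraries and not the 12 alone. The question was whether exposure to both metals before and shortly after birth leaves a difference in the RNA of the young adult female hippocampus, weeks after exposure ended.

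Lead passes into the fetus and the suckling pup, where it displaces calcium and zinc at protein sites, blocks NMDA-type glutamate receptors and inhibits the heme enzyme encoded by Alad. Manganese is an essential metal that is taken up by Slc39a8 and Slc39a14 and exported by Slc30a10, and in excess it builds up in the brain. The hippocampus, which stores spatial and episodic memory and carries social memory in its CA2 field, is rich in NMDA receptors and in receptors for glucocorticoids, the adrenal stress hormones.

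No gene passed an adjusted p of 0.05 among the 16360 genes tested (0% called; edgeR quasi-likelihood test with Benjamini-Hochberg adjustment), and the smallest adjusted p was 0.9999. Before adjustment, p was under 0.05 for 239 genes (1.46%), of which 139 had higher means in the Pb + Mn daughters (0.85%) and 100 had lower means (0.611%); a test with a uniform spread of p-values would give 818. DESeq2 likewise called 0 genes, with 244 at an unadjusted p under 0.05. Levels are given in CPM (counts per mega-count of the library), the share of a library's reads that fall on a gene, after scaling of the libraries to each other. Differences are given as the log2 fold change of Pb + Mn over control daughters with its standard error (SE), where 1 is a doubling.

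The differences were small over most of the transcriptome. The log2 fold changes of all genes had a median of -0.00 and a median SE of 0.16. The lowest 5% lay below -0.33 and the highest 5% above 0.33. The 95% interval of the fold change lay wholly within 2-fold in either direction for 14250 genes (87.1%), and within 1.5-fold for 11100 genes (67.9%). Differences beyond 2-fold in the estimate were found in 121 genes, of which 29 had a mean log2 CPM of at least 0, so most of them were genes with few reads. The ranges of the 2 groups did not overlap in 12 genes (0.0733%), 4 with all Pb + Mn daughters above all controls (0.0244%) and 8 with all below (0.0489%).

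**Figure D1:**
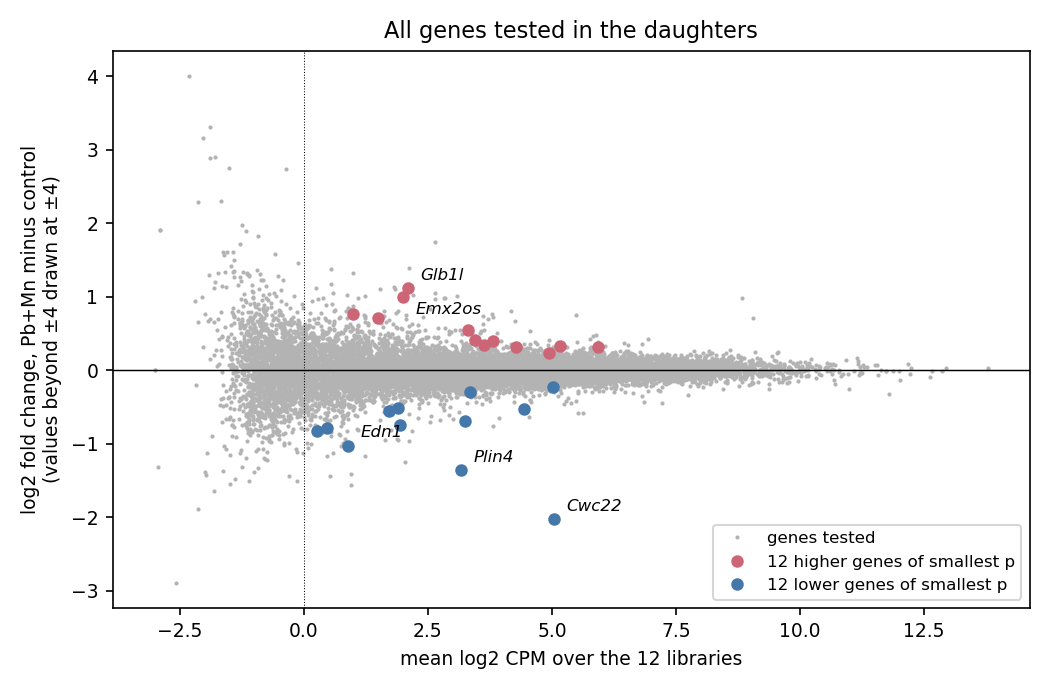
Log2 fold change of Pb + Mn over control daughters (vertical) against the mean log2 CPM of the 12 libraries (horizontal), 1 grey point for each of the 16360 genes tested, with the 12 higher genes of smallest p in red and the 12 lower ones in blue. The cloud is centred on 0 and widens at low levels, and Cwc22 at -2.03 lies apart from genes of like level.

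Library size did not separate the groups. The control libraries held 8.185 M to 25.11 M counts (M for mega; 14.35 M ± 6.175 M, mean ± SD, n = 6) and the Pb + Mn libraries 12.52 M to 20.79 M (15.54 M ± 2.904 M), a difference smaller than the spread (exact permutation test, two-sided, p = 0.684). Xist, the RNA of the inactive X chromosome, was present in all 12 libraries, and Ddx3y, a Y-linked gene, did not exceed 0.0714 CPM in any. The dentate granule cell markers summed to 511 to 708 CPM in controls and to 565 to 669 CPM in Pb + Mn daughters. Within the control group, 2 libraries differed most from the others. Control 1 differed from the other controls by a median of 0.359 on the log2 scale over genes and had a length trend (the slope of its log2 deviation on the log2 length of the gene's transcript) of -0.279, against -0.026 to 0.088 in the other controls and 0 to 0.092 in the Pb + Mn daughters. Control 5, the library with the fewest counts, differed from the other controls by 0.237 and carried high interferon genes. The Pb + Mn daughters differed from each other by 0.14 to 0.184.

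The Pb + Mn daughters were more alike than the control daughters as these libraries stand. The SD of log2 CPM over the 6 animals had a median over genes of 0.194 in Pb + Mn daughters and 0.276 in control daughters, and 70.0% of genes varied more among the controls. Without controls 1 and 5 the control median was 0.190, and 47.9% of genes varied more among the controls. The Pb + Mn sons had a median SD of 0.188 and the control sons one of 0.250, while the Pb daughters had 0.341 and the Mn daughters 0.238. No test was made of these spreads.

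Cwc22, a factor of the spliceosome that also serves in loading the exon junction complex, had the smallest p. Its level was 29.9, 43.8, 71.4, 83.6, 93.4 and 107 CPM in the 6 controls in ascending order, and 12.1, 12.9, 13.8, 14.4, 16.1 and 36.3 CPM in the Pb + Mn daughters. Thus 5 of the 6 Pb + Mn daughters lay below every control, and Pb + Mn daughter 6 lay above the lowest control. The log2 fold change was -2.03 ± 0.55 (95% interval -3.14 to -0.93; edgeR unadjusted p = 0.000571, adjusted p = 1). The same low state was present elsewhere in the study, including in unexposed animals. Control sons ranged from 10.3 to 111 CPM, with control sons 3 and 5 at 10.3 and 12.1 CPM, and Pb + Mn sons from 10.4 to 51.5 CPM. The log2 fold change was -1.62 in Pb + Mn sons, -1.34 in Pb daughters and -1.23 in Mn daughters, the latter 2 measured against the same 6 control daughters. The difference between daughters and sons was -0.41 (edgeR unadjusted p = 0.588, adjusted p = 1). In mice Cwc22 lies in a segment of chromosome 2 whose copy number varies between stocks, and reads of near-identical copies cannot be assigned with certainty, so its level here is uncertain.

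Edn1, which encodes the vasoconstrictor peptide endothelin, ranged from 1.31 through a median of 2.64 to 3.78 CPM in controls and from 0.852 through 1.09 to 1.86 CPM in Pb + Mn daughters. All 6 Pb + Mn daughters lay below the control mean, and the ranges overlapped. Its log2 fold change was -1.03 ± 0.28 (edgeR unadjusted p = 0.000577, adjusted p = 1), against -0.49 in Pb daughters, -0.42 in Mn daughters and -0.22 in Pb + Mn sons. Tfpi, an inhibitor of the tissue factor pathway of clotting, ranged from 3.30 to 4.30 CPM (median 4.02) in controls and from 2.07 to 3.22 CPM (median 2.61) in Pb + Mn daughters. Here the groups did not overlap, and the log2 fold change was -0.56 ± 0.19, against -0.63 in Pb daughters and -0.13 in Mn daughters, with the same controls, and -0.40 in Pb + Mn sons. Angptl4, a secreted inhibitor of lipoprotein lipase, ranged from 2.302 to 7.925 CPM (median 5.13) in controls and from 1.64 to 4.20 CPM (median 3.10) in Pb + Mn daughters. Its ranges overlapped, with a log2 fold change of -0.75 ± 0.26, and the Pb daughters and Mn daughters stood at -0.69 and -0.64 against the same controls.

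Nlrp3, the sensor of the inflammasome, ranged from 0.844 to 2.27 CPM (median 1.52) in controls and from 0.439 to 1.45 CPM (median 0.790) in Pb + Mn daughters, a log2 fold change of -0.82 ± 0.29. Lyn, a Src family kinase of microglia and other immune cells, ranged from 8.87 to 13.5 CPM (median 11.8) in controls and from 7.41 to 10.7 CPM (median 8.98) in Pb + Mn daughters, a log2 fold change of -0.30 ± 0.11. Both genes overlapped between groups. All 6 Pb + Mn daughters lay below the control mean of each, as they did in 571 of the 16360 genes tested. Nlrp3 stood at -0.19 in Pb daughters and -0.27 in Mn daughters against the same controls, and Lyn at -0.06 and -0.0005. Kcnk6, a potassium channel of the two-pore-domain family, did not overlap, with 3.76 to 5.07 CPM (median 4.42) in controls, 2.20 to 3.61 CPM (median 3.04) in Pb + Mn daughters and a log2 fold change of -0.52 ± 0.19. Of the remaining lower genes, Efhc2, an EF-hand protein of ciliary microtubules, had a log2 fold change of -0.78 ± 0.24. Trappc5, a subunit of the TRAPP vesicle tethering complex, spanned 30.9 to 38.8 CPM in controls and 27.7 to 31.4 CPM in Pb + Mn daughters, at -0.23 ± 0.08. Mcc stood at -0.53 ± 0.18. In Pb and Mn daughters, against the same controls, Kcnk6 stood at -0.38 and -0.37, and Efhc2 at -0.56 and -0.24. Trappc5 stood at -0.22 and -0.17, and Mcc at -0.23 and 0.04. None of these genes passed the adjusted threshold.

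**Figure D2:**
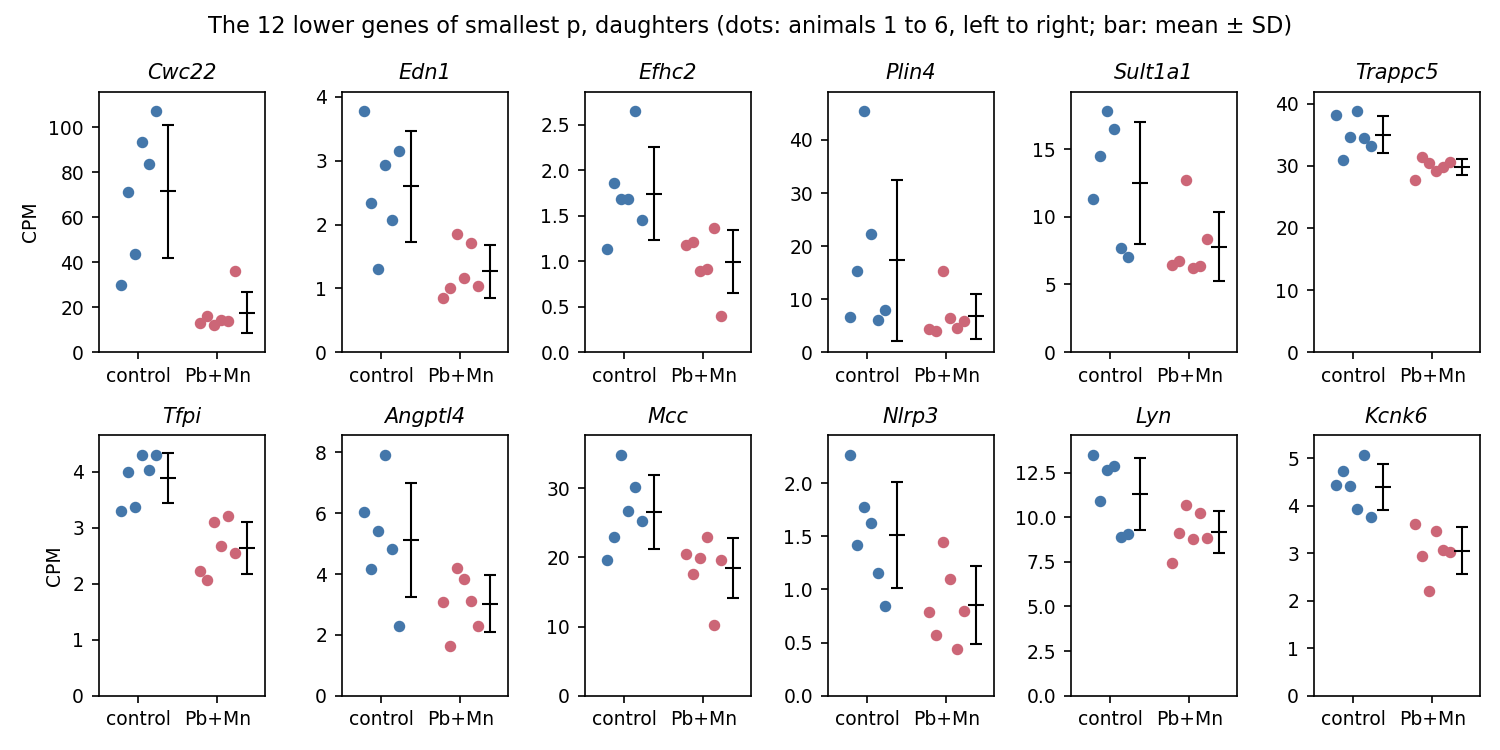
CPM of the 12 lower genes of smallest p in control daughters (blue) and Pb + Mn daughters (red), with animals 1 to 6 from left to right in each group and the mean ± SD of 6 animals as a bar. Tfpi and Kcnk6 do not overlap between groups, the Plin4 mean of the controls is drawn up by control 3 at 45.4 CPM, and 5 of 6 Pb + Mn daughters lie at 12.1 to 16.1 CPM of Cwc22.

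Among the higher genes of smallest p, none passed the adjusted threshold either. Lama5, a laminin chain of basement membranes, ranged from 6.91 through a median of 8.13 to 10.6 CPM in controls and from 8.42 through 11.1 to 16.98 CPM in Pb + Mn daughters. All 6 Pb + Mn daughters exceeded the control mean, at a log2 fold change of 0.55 ± 0.18 (edgeR unadjusted p = 0.00347, adjusted p = 1). Col6a3, a collagen VI chain, ranged from 1.45 to 3.46 CPM (median 2.12) in controls and from 2.19 to 4.57 CPM (median 3.85) in Pb + Mn daughters, at 0.71 ± 0.25. Xylt1, which starts the sugar chains of proteoglycans, ranged from 41.2 to 66.7 CPM (median 54.7) in controls and from 55.9 to 74.5 CPM (median 70.2) in Pb + Mn daughters, at 0.31 ± 0.12. The ranges of these 3 genes overlapped between groups. Lama5 stood at 0.07 in Pb daughters and 0.23 in Mn daughters against the same controls. Col6a3 stood at 0.31 and 0.21, and Xylt1 at 0.17 and 0.21.

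Gli3, a transcription factor of the hedgehog pathway, ranged from 6.14 to 11.6 CPM (median 9.98) in controls and from 11.1 to 14.3 CPM (median 12.7) in Pb + Mn daughters, a log2 fold change of 0.41 ± 0.13. Notch1, the receptor that holds neural stem cells back from differentiation, ranged from 25.96 to 37.98 CPM (median 33.0) in controls and from 33.8 to 50.4 CPM (median 38.6) in Pb + Mn daughters, at 0.32 ± 0.12. Rfx4, a transcription factor of neural progenitors and astrocytes, ranged from 15.4 to 18.5 CPM (median 17.2) in controls and from 18.5 to 26.4 CPM (median 20.1) in Pb + Mn daughters, at 0.32 ± 0.12. In each of the 3 genes all 6 Pb + Mn daughters exceeded the control mean, and the ranges met or overlapped. Gli3 stood at 0.12 in Pb daughters and 0.39 in Mn daughters against the same controls. Notch1 stood at 0.16 and 0.30, and Rfx4 at 0.02 and 0.16. Emx2os, the antisense transcript of the cortical patterning gene Emx2, was at 1.73 to 2.79 CPM in 5 controls and 6.30 CPM in control 4, and at 5.54 to 8.67 CPM in 5 Pb + Mn daughters and 2.19 CPM in Pb + Mn daughter 5. Its log2 fold change was 0.99 ± 0.37, against 0.50 in Pb daughters and 0.85 in Mn daughters with the same controls. Reads of Emx2 cannot be set apart, since no source used here gives the strand setting of the counting.

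Glb1l, a relative of lysosomal beta-galactosidase, rested on 1 animal. Controls ranged from 2.15 to 4.04 CPM (median 3.28), while 5 Pb + Mn daughters ranged from 3.07 to 5.97 CPM and Pb + Mn daughter 6 stood at 20.4 CPM. The log2 fold change of 1.11 ± 0.37 became 0.44 without that library. A Pb + Mn son, also number 6, stood at 20.7 CPM, and the other 5 Pb + Mn sons at 3.80 to 6.87 CPM. The remaining higher genes were Slc2a10, a glucose transporter family member (control mean 1.46 ± 0.38 CPM, Pb + Mn mean 2.45 ± 0.48 CPM, SD, n = 6; log2 fold change 0.77), Fbxo6, a ubiquitin ligase subunit that binds glycoproteins (0.40), Efs, an adaptor of Src kinases (0.34), and Casp9, the initiator protease of the mitochondrial death pathway (0.24). All 6 Pb + Mn daughters exceeded the control mean in these 4 genes, as they did in 936 of the 16360 genes tested. The genes were picked by p in these same animals, so such counts are no separate support. Against the same controls, Fbxo6 stood at 0.39 in Pb daughters and 0.25 in Mn daughters, and Slc2a10 at 0.30 and 0.40. Efs stood at -0.04 and 0.10, and Casp9 at 0.13 and 0.15.

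**Figure D3:**
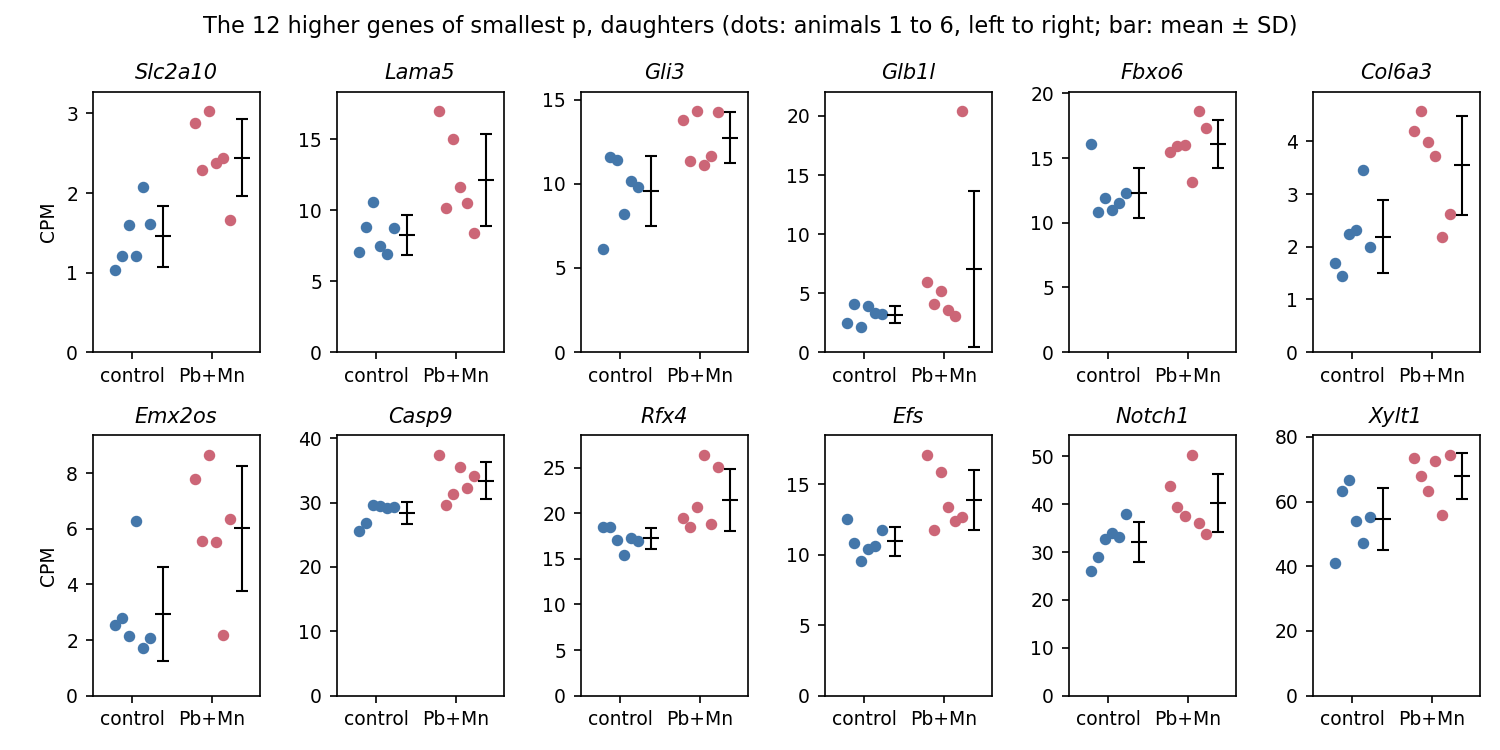
CPM of the 12 higher genes of smallest p in control daughters (blue) and Pb + Mn daughters (red), with animals 1 to 6 from left to right in each group and the mean ± SD of 6 animals as a bar. In 10 of the 12 genes all 6 Pb + Mn daughters exceed the control mean, Glb1l has 1 Pb + Mn daughter at 20.4 CPM, and each group holds 1 animal at the other group's level of Emx2os.

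Over 33 lists of genes by pathway or cell type, 214 of the 464 distinct genes tested had a log2 fold change above 0, beside 49.7% of all genes. Among the 464 genes, 1 was higher and 6 were lower at an unadjusted p under 0.05, beside 0.85% and 0.611% of all genes. Lists and members were chosen with earlier results of these data known, so this is not an independent comparison. The 1 higher gene was Lefty1, whose mean was carried by 1 animal. The median of a list was within 0.1 of 0 on the log2 scale in 27 of the 33 lists and at least 0.2 from it in 3, namely glucocorticoid-responsive genes, choroid plexus markers and blood cell markers.

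Glucocorticoid-responsive genes are switched on when cortisol or corticosterone binds its receptor, which then sits on DNA at paired AGAACA half-sites. Of the 16 genes of the list, 2 had a log2 fold change above 0, the list median was -0.27 beside -0.00 over all genes, and 3 genes were lower at an unadjusted p under 0.05 (0.611% of all genes were). The list was chosen with earlier results of these data known, so these values cannot be read as an enrichment. No member passed the adjusted threshold. Plin4, a coat protein of lipid droplets, ranged from 5.99 through a median of 11.6 to 45.4 CPM in controls and from 4.00 through 5.19 to 15.3 CPM in Pb + Mn daughters. Controls 2, 3 and 4 and Pb + Mn daughter 3 were the high animals, and the ranges overlapped. The log2 fold change of -1.36 ± 0.42 became -0.84 without control 3. Plin4 stood at -0.34 in Pb daughters and -0.98 in Mn daughters against the same controls. Sult1a1, a sulfotransferase of phenols, ranged from 7.06 to 17.8 CPM (median 12.9) in controls and from 6.21 to 12.7 CPM (median 6.57) in Pb + Mn daughters, at -0.69 ± 0.22. The high animal among the Pb + Mn daughters was again number 3, and control 3 was again the highest control. In Pb and Mn daughters Sult1a1 stood at -0.17 and -0.48 against the same controls. Cdkn1a, the cell cycle inhibitor p21, ranged from 5.99 to 43.2 CPM (median 17.97) in controls and from 7.14 to 17.6 CPM (median 10.1) in Pb + Mn daughters, at -0.76 ± 0.37, and at -0.41 without control 3.

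Among the other glucocorticoid-responsive genes, named here after their values were seen, the differences were smaller. Hif3a, a hypoxia-inducible factor subunit, stood at -0.55 ± 0.35. Tsc22d3, an anti-inflammatory leucine zipper protein, stood at -0.44 ± 0.24. Pdk4, a kinase that closes glucose oxidation, stood at -0.43 ± 0.23, and at -0.26 without control 3. Sgk1, the serum and glucocorticoid regulated kinase, stood at -0.35 ± 0.27, and Fkbp5, a chaperone that dampens the receptor, at -0.30 ± 0.18. Their 95% intervals included 0, and the Pb + Mn means lay below the control means. Ddit4 stood at -0.24 ± 0.15, Nfkbia at -0.14 ± 0.19 and Errfi1 at -0.12 ± 0.14, also with intervals that included 0. The remaining members were near 0 or above it. The clock gene Per1 and the transcription factor Klf9 both stood at -0.03, the transcription factor Zbtb16 at -0.04, and the receptor genes Nr3c2 and Nr3c1 at 0.00 and 0.18. The mean log2 CPM over the 16 genes was 5.45, 5.80, 6.25, 5.85, 5.51 and 5.35 in controls 1 to 6 and 5.34, 5.41, 5.69, 5.21, 5.37 and 5.43 in Pb + Mn daughters 1 to 6. Controls 2, 3 and 4 were above every Pb + Mn daughter, and controls 1, 5 and 6 were within their range. The list median was -0.17 in Pb daughters and -0.17 in Mn daughters, both measured against the same controls, and -0.04 in Pb + Mn sons against their own. In daughters it was -0.22 without control 3, -0.33 without control 6 and -0.32 without controls 1 and 5. The hour of tissue collection is not in the labels, so its part was not tested.

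Promoter windows of 300 bases around annotated starts were read from RefSeq (GRCm38.p6) for 14 of the 16 glucocorticoid-responsive genes. The half-site AGAACA, searched on both strands, was in 3 of these genes (Sgk1, Sult1a1 and Tsc22d3) and in 5 of their 24 windows (20.8%), beside 19.0% of all 32851 windows. The whole palindrome, AGAACA and TGTTCT set 3 bases apart, was in 3 windows of all, 1 of them of Sgk1. The 2 windows below are shown because Sult1a1 is the gene of smallest p in the list that holds a half-site (in capitals, reading TGTTCT where it lies on the other strand) and because Sgk1 holds the palindrome (in capitals). Sult1a1 is at chr7:126676369-126676668 on the minus strand, and Sgk1 at chr10:21993640-21993939 on the plus strand.
Sult1a1: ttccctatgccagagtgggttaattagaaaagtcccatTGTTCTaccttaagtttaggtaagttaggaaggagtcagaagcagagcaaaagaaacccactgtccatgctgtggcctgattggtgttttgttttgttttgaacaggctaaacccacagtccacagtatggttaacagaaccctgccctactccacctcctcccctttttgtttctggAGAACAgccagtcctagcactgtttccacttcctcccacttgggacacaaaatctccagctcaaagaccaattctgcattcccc
Sgk1: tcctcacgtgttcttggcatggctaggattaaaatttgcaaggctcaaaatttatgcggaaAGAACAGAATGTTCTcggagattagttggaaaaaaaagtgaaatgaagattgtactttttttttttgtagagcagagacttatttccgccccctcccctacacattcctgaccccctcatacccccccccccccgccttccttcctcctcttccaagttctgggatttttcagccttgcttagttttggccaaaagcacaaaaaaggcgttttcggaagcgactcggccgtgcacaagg
A match describes letters only, and binding was not measured.

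Interferon-stimulated genes and antigen presentation genes, which cells express after sensing viral nucleic acid or interferon, had a list median of -0.09, with 4 of 18 genes above 0. The differences came with control 5. Irf7, the transcription factor that amplifies the response, was 2.64, 1.29, 3.84, 1.42, 17.4 and 0.921 CPM in controls 1 to 6 and 1.36 to 3.08 CPM in Pb + Mn daughters. Ifit1, an RNA-binding effector, was 8.87 CPM in control 5, 1.04 to 1.97 CPM in the other controls and 0.429 to 1.71 CPM in Pb + Mn daughters. Isg15, a ubiquitin-like modifier named here after its values were seen, was 6.22 CPM in control 5, 0.735 to 1.89 CPM in the other controls and 0.4999 to 2.36 CPM in Pb + Mn daughters. Control 5 was the highest of the 12 libraries in each of the 3 genes, while the other 11 overlapped. The log2 fold changes of -1.17 ± 0.45 (Irf7), -1.03 ± 0.40 (Ifit1) and -0.62 ± 0.43 (Isg15) became -0.00, -0.22 and 0.17 without control 5, and the list median became 0.15. The mean log2 CPM over the 18 genes was 4.12 in control 5, 2.20 to 2.83 in the other controls and 2.49 to 2.99 in Pb + Mn daughters.

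The interferon-stimulated response element contains GAAA, any 2 bases and GAAA again. On either strand, with overlapping matches counted, these were in 8 of the 16 genes of the list with a RefSeq window, in 40.0% of their windows, beside 3.44% of all windows. The windows of Ifit1 (chr19:34640639-34640938, plus strand) and Isg15 (chr4:156200769-156201068, minus strand), of build GRCm38.p6, are shown because both genes stood high in control 5. Capitals mark the matches, with TTTC in place of GAAA where the element lies on the other strand, and the run in Isg15 holds 3 overlapping matches.
Ifit1: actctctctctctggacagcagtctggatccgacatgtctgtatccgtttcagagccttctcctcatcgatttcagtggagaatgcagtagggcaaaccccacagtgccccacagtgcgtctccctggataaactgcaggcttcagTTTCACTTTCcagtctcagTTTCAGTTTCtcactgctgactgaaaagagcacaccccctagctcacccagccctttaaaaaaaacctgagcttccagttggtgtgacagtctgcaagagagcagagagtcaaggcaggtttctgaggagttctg
Isg15: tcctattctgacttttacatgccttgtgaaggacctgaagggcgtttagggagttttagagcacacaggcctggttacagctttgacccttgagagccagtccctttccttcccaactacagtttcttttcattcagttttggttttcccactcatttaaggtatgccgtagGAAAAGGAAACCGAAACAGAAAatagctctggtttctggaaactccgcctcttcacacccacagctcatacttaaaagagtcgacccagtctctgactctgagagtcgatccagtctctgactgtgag
The window of Irf7 held no match of these letters.

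**Figure D4:**
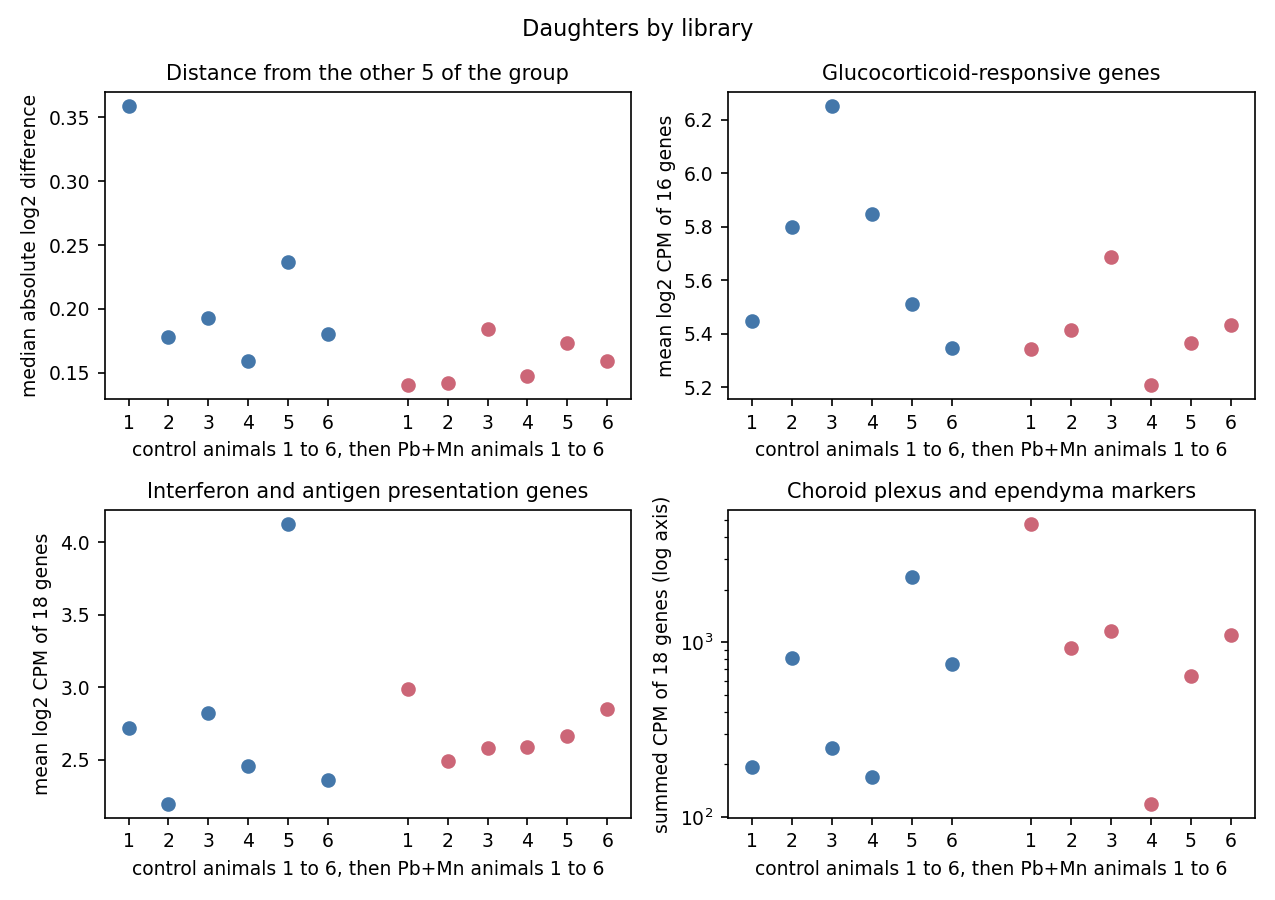
Measures for each daughter, control animals 1 to 6 in blue and Pb + Mn animals 1 to 6 in red: the median absolute log2 difference over genes from the other 5 of the group, the mean log2 CPM of 16 glucocorticoid-responsive genes and of 18 interferon and antigen presentation genes, and the summed CPM of 18 choroid plexus and ependyma markers on a log axis. Control 1 is at 0.359 in distance, control 5 at 4.12 in interferon genes, and Pb + Mn daughter 1 at 4744 CPM in choroid plexus markers.

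Genes that handle manganese did not pass the test and differed little. Slc30a10, the manganese exporter, ranged from 9.54 through a median of 14.2 to 19.2 CPM in controls and from 12.9 through 15.4 to 18.1 CPM in Pb + Mn daughters, a log2 fold change of 0.13 (95% interval -0.17 to 0.42). Slc39a14, a manganese and zinc importer, ranged from 35.7 to 45.7 CPM in controls and from 38.2 to 43.0 CPM in Pb + Mn daughters, at -0.05 (-0.28 to 0.18). Slc39a8, the other importer, ranged from 3.59 to 6.22 CPM in controls and from 3.57 to 5.77 CPM in Pb + Mn daughters, at 0.16 (-0.14 to 0.47). Slc11a2, the divalent metal transporter of iron uptake, stood at 0.16 ± 0.09. The intervals of the first 3 genes exclude a doubling and a halving. The list of 12 manganese and iron genes, transporters and ferritins among them, had a median of 0.04 with 9 genes above 0.

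The metallothioneins, cysteine-rich proteins that bind zinc and are induced by metals and glucocorticoids, had lower means with overlapping ranges, and single libraries moved the differences. Mt1 ranged from 161 to 374 CPM (median 261) in controls and from 147 to 321 CPM (median 179) in Pb + Mn daughters, at -0.34 (-0.78 to 0.10). Mt2 stood at -0.34 (-0.92 to 0.24) and Mt3, the brain form, at -0.19 (-0.64 to 0.27). Without control 1, Mt1 was at -0.20 and Mt3 at -0.0412, and without Pb + Mn daughter 3, Mt1 was at -0.54 and Mt2 at -0.65. The Pb + Mn daughter with the highest Mt1 was again number 3. Alad, the heme enzyme inhibited by lead at the protein level, ranged from 20.3 to 32.3 CPM in controls and from 18.1 to 32.2 CPM in Pb + Mn daughters, at 0.03 (-0.33 to 0.39). Of the 12 genes of heme synthesis and breakdown, 4 were above 0 and the median was -0.04. Among them Hmox1, which breaks down heme, stood at -0.14 ± 0.17. Oxidative defence genes had a median of -0.01 over 18 genes, with Nfe2l2, their main transcription factor, at -0.14 ± 0.10.

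The unfolded protein response, by which the endoplasmic reticulum raises its chaperones, had 1 of 15 genes above 0 and a median of -0.13. Herpud1, which helps to degrade misfolded proteins, ranged from 47.5 to 66.7 CPM (median 55.9) in controls and from 43.7 to 52.9 CPM (median 47.7) in Pb + Mn daughters, at -0.22 ± 0.12. Manf, a secreted factor of this response, stood at -0.30 ± 0.21, with 46.0 to 106 CPM in controls, and at -0.0965 without control 1. Control 1 was the highest control over the list, and without it the median was -0.02.

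Receptors of glutamate, which include the main synaptic target of lead, had medians near 0. Grin1, the obligatory NMDA receptor subunit, ranged from 331 to 445 CPM in controls and from 328 to 442 CPM in Pb + Mn daughters, at 0.02 (-0.34 to 0.37). Grin2a, the subunit that predominates in the adult, stood at 0.03 (-0.46 to 0.52), and Grin2b, the subunit of early life, at 0.19 (-0.32 to 0.70), or 0.0509 without control 1. Grin2c, a subunit found mainly in the cerebellum and in astrocytes, stood at 0.13 ± 0.12. The 8 tested genes of the NMDA receptor list, which include Dlg4 and Srr besides the subunits, had a median of 0.04, with 7 above 0. The 14 AMPA and kainate receptor genes had a median of -0.00, and Grik3, a kainate subunit, stood at 0.34 ± 0.25. The 10 metabotropic receptor and Homer genes had a median of 0.11, with Grm8 at 0.28 ± 0.20 and Grm3 at 0.14 ± 0.12, and the median was 0.02 without control 1. GABA-A receptor and GABA handling genes had a median of 0.03 over 18 genes, Gabra5, the subunit of tonic inhibition in the hippocampus, being at -0.12 ± 0.14. Voltage-gated calcium channel genes had a median of 0.08 over 15 genes, 12 of them above 0, with the T-type channel Cacna1i at 0.17 ± 0.13.

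Social peptide receptors and activity genes did not pass the test. Oxtr, the oxytocin receptor, ranged from 4.72 to 10.7 CPM in controls and from 6.60 to 8.46 CPM in Pb + Mn daughters, at 0.03 (-0.44 to 0.51). Avpr1b, the vasopressin receptor of CA2 neurons, ranged from 0.576 to 1.98 CPM in controls and from 0.721 to 1.02 CPM in Pb + Mn daughters, at -0.40 (-1.28 to 0.49), an interval that allows a halving. Fos, an immediate early gene of recent activity, stood at -0.06 (-0.65 to 0.53) and Bdnf, the growth factor of synaptic plasticity, at -0.11 (-0.55 to 0.34). The 22 immediate early genes had a median of -0.04, with Dusp6, a phosphatase of the ERK kinases, at -0.13 ± 0.13. The clock genes had a median of 0.05 over 15 genes, and the clock repressor Cry1 stood at -0.14 ± 0.12. Ribosomal protein genes had a median of -0.03 over 30 genes (Rpl11 at -0.14 ± 0.26, a gene with processed copies that can share reads). The nuclear-encoded respiratory chain had a median of -0.07 over 24 genes (Ndufb3 at -0.20 ± 0.20). The 13 mitochondrially encoded genes, which poly(A) selection captures unevenly, had a median of -0.01. Among them mt-Nd4l stood at -0.38 ± 0.41, with means of only 0.545 CPM in controls and 0.421 CPM in Pb + Mn daughters. When 1 library was left out, the ribosomal median lay between -0.10 and 0.11. The respiratory chain median lay between -0.13 and 0.01, and the mitochondrial median between -0.12 and 0.19. Each was highest without control 1.

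No list of neuron or glia markers had a member past the adjusted threshold. In bulk tissue, fewer cells of a type and less RNA per cell cannot be told apart. List medians were 0.02 for dentate granule cells (Plk5 at 0.35 ± 0.26), 0.04 for CA1 pyramidal neurons, -0.04 for CA2 and CA3 pyramidal neurons (Iyd at -0.30 ± 0.24) and -0.01 for interneurons (Cort, a somatostatin relative, at -0.43 ± 0.34). Lefty1, a secreted inhibitor of Nodal, was at 0 in 5 controls and 0.0404 CPM in control 2, and at 0 to 0.0974 CPM in 5 Pb + Mn daughters and 11.9 CPM in Pb + Mn daughter 6. No fold is given for it, since 1 animal carries its mean. The 12 genes of adult neurogenesis had a median of -0.13 (0.08 without control 5), with Igfbpl1, a marker of young neurons, at -0.65 ± 0.39 and Eomes, of intermediate progenitors, at 0.95 ± 0.60. Medians were 0.04 for mature oligodendrocytes (Mog, a myelin surface protein, at -0.24 ± 0.17), -0.05 for oligodendrocyte precursors (Sox10 at 0.17 ± 0.15), -0.01 for astrocytes and -0.02 for microglia (the fractalkine receptor Cx3cr1 at 0.16 ± 0.12). Among astrocyte genes, Gfap, the filament protein of reactive astrocytes, ranged from 475 to 1336 CPM in controls and from 537 to 814 CPM in Pb + Mn daughters, at -0.20 (-0.62 to 0.23). Glul, the enzyme that turns glutamate into glutamine, stood at -0.25 ± 0.14.

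Endothelium and pericyte markers had a median of -0.03 over 15 genes. Mfsd2a, the lipid transporter of the blood-brain barrier, ranged from 31.6 to 75.7 CPM (median 59.7) in controls and from 31.5 to 57.9 CPM (median 35.7) in Pb + Mn daughters, at -0.42 ± 0.19 (edgeR unadjusted p = 0.0328, adjusted p = 1). Slc2a1, the glucose transporter of the barrier, ranged from 122 to 198 CPM (median 163) in controls and from 115 to 157 CPM (median 131) in Pb + Mn daughters, at -0.28 ± 0.14. Both ranges overlapped, and 6 of 15 markers were above 0.

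Tissue next to the hippocampus varied from animal to animal. Choroid plexus and ependyma markers summed to 192, 813, 249, 169, 2373 and 750 CPM in controls 1 to 6 and to 4744, 924, 1165, 119, 640 and 1107 CPM in Pb + Mn daughters 1 to 6. The highest animal was Pb + Mn daughter 1 and the lowest Pb + Mn daughter 4. The list median was 0.89, with 17 of 18 genes above 0 and none past the threshold; it was 0.09 without Pb + Mn daughter 1 and 1.57 without control 5. Ttr, the thyroxine carrier made by the plexus, reached 4026 CPM in Pb + Mn daughter 1, where its median was 844 CPM in Pb + Mn daughters and 386 CPM in controls. Tmem72 stood at 1.74 ± 1.09 and Sostdc1, a secreted BMP inhibitor, at 0.97 ± 0.67, and at 0.43 and 0.44 without Pb + Mn daughter 1. Thalamus and habenula markers summed to 263, 247, 262, 800, 1379 and 761 CPM in controls 1 to 6. In Pb + Mn daughters 1 to 6 they summed to 706, 327, 732, 642, 883 and 211 CPM. CA1 markers were higher in controls 1 to 3 (803 to 1034 summed CPM) than in controls 4 to 6 (479 to 634). So were mitochondrially encoded genes (45470 to 61690 against 26030 to 33080). The thalamus and habenula list had a median of -0.07 (0.39 without control 5). Its member Tac1, the substance P precursor, stood at -0.32 ± 0.33 and at -0.0734 without control 5. Meninges markers had a median of -0.01, with the growth factor Igf2 at 0.80 ± 0.54 (0.22 without Pb + Mn daughter 1, 1.31 without control 5). Striatum and cortex markers had a median of 0.08 (Rgs9 at -0.21 ± 0.22). Blood cell genes, among them closely similar globins, had a median of 0.43 over 5 genes, which was 0.16 without Pb + Mn daughter 5 and 0.83 without control 1. Alas2, the red cell heme enzyme, stood at 0.51 ± 0.37 (0.23 without Pb + Mn daughter 5). The neutrophil gene S100a9 stood at -1.19 ± 0.84, with means of only 0.544 CPM in controls and 0.249 CPM in Pb + Mn daughters. The part of dissection in the gene differences was not tested.

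**Figure D5:**
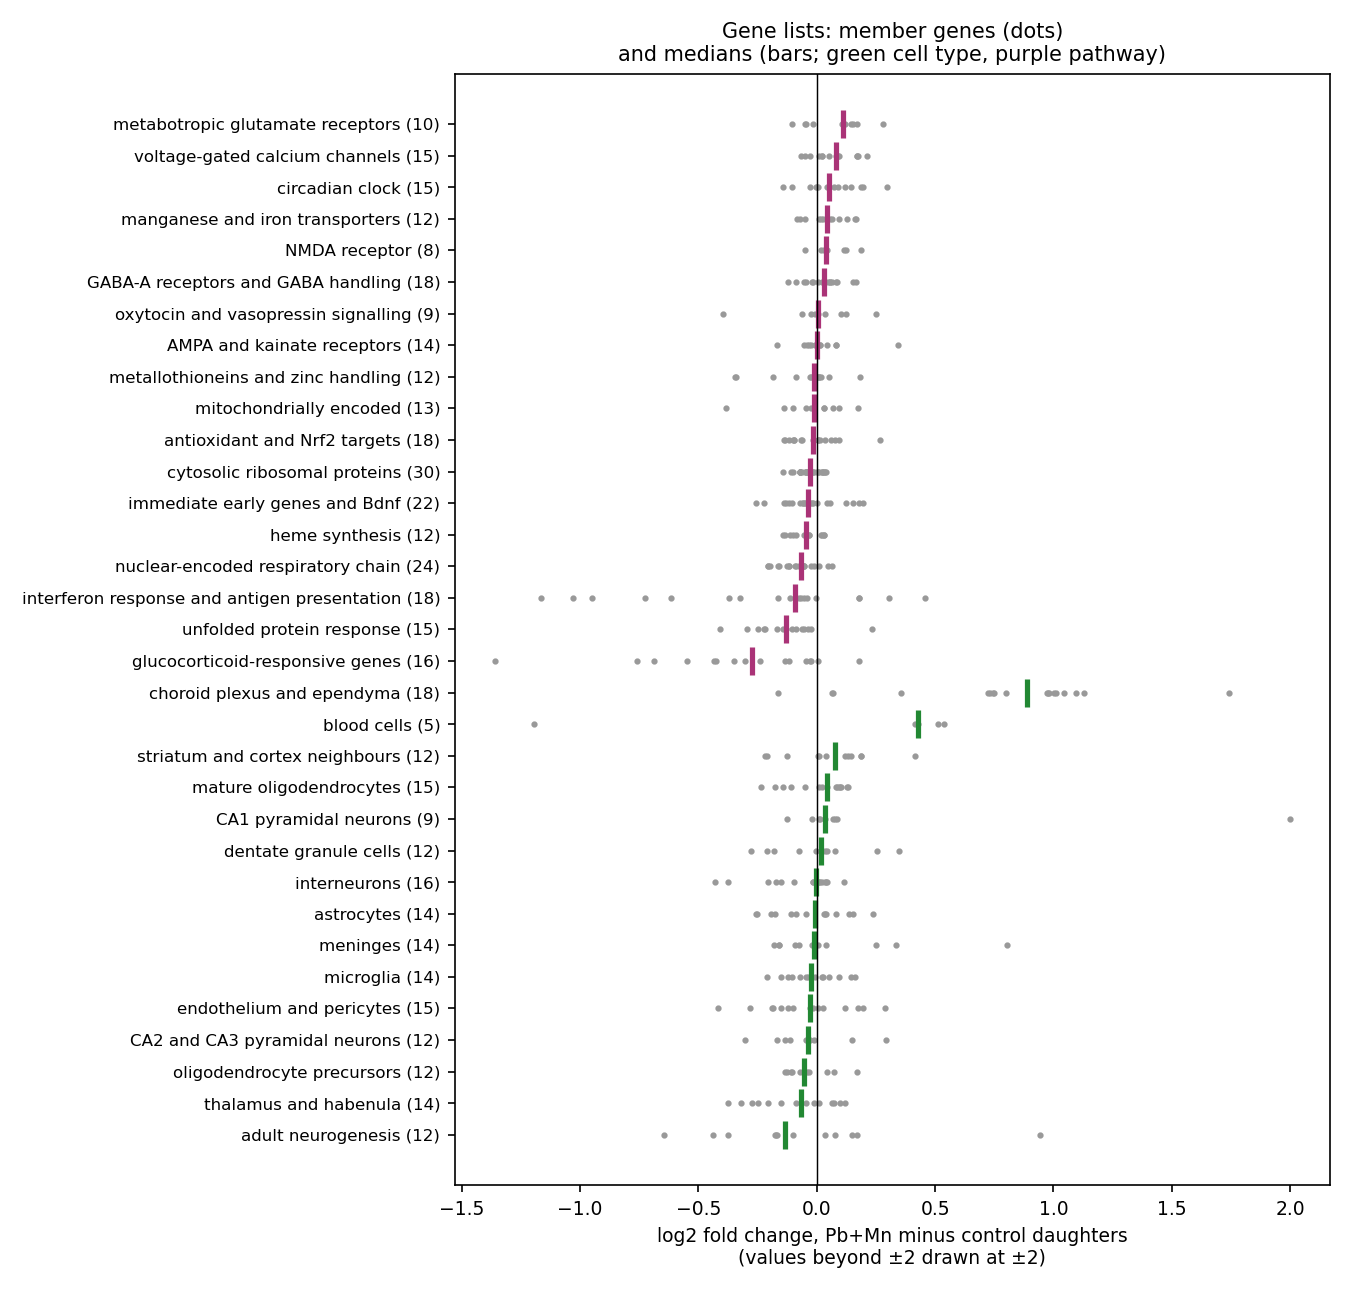
Log2 fold change of Pb + Mn over control daughters for the member genes (grey dots) of each list and the list median (bar, purple for pathways and green for cell types), with the number of genes tested in parentheses. Most medians lie within 0.1 of 0, and the exceptions farthest from 0 are choroid plexus and ependyma at 0.89, blood cells at 0.43 and glucocorticoid-responsive genes at -0.27.

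Whether the combination acted differently in daughters and sons was tested by the interaction of sex and exposure. No gene passed (0%), and 93 genes (0.568%) had an unadjusted p under 0.05 by edgeR, 0.324% more positive in daughters and 0.244% more negative. Col6a3 had a log2 fold change of 0.71 in daughters and -0.40 in sons, a difference of 1.11 ± 0.35 (edgeR unadjusted p = 0.00308, adjusted p = 1). Plin4 had -1.36 in daughters and 0.19 in sons, a difference of -1.56 ± 0.59, and -1.02 without control daughter 3. Trhr, the receptor of thyrotropin-releasing hormone, had 0.57 and -1.02, and Rttn, a centriole protein, 0.25 and -0.58. The genes Zcchc8 (-0.16 and 0.20), Arhgap45 (-0.16 and 0.37) and Kif20a (-0.40 and 0.47) also had opposite signs in the sexes. The genes named here were picked by interaction p in these same animals, which favours opposite signs, so the signs are no separate support. Xist also ranked among these genes, and its difference came from 1 library labelled control son with 24.4 CPM; without it the difference was -0.14. In sons alone, 0 genes passed, and 367 (2.24%) had an unadjusted p under 0.05, 0.874% higher and 1.37% lower.

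Whether the combination departed from the sum of the single metals was tested by the interaction of lead and manganese in daughters. No gene passed (smallest adjusted p 0.9941 by edgeR). An unadjusted p under 0.05 was found for 519 genes (3.17%), 1.98% above the sum and 1.19% below it. Their number was 486 without Pb daughter 2, 316 without control daughter 5 and 896 without control daughter 1. In single-metal daughters, against the same controls, 0 genes passed for Pb, with 368 (2.25%) at an unadjusted p under 0.05, 0.996% higher and 1.25% lower, and 0 for Mn, with 424 (2.59%), 1.19% higher and 1.41% lower. Cd44, the hyaluronan receptor, averaged 3.34 ± 0.80 CPM in control daughters, 2.03 ± 0.52 CPM in Pb daughters, 2.65 ± 0.58 CPM in Mn daughters and 3.41 ± 1.24 CPM in Pb + Mn daughters (SD of 6 animals each). Its departure from the sum was 1.09 ± 0.28 (edgeR unadjusted p = 0.000264, adjusted p = 0.994). Each single metal thus had a lower mean than the controls, and the combination did not. Adal, an adenosine deaminase relative, departed by 0.80 ± 0.23, and Arhgef37 by 1.70 ± 0.48. Irf7 departed by 2.28 ± 0.66, and by 1.12 without control 5. In the other direction stood Shank1, a scaffold of the excitatory synapse (-0.57 ± 0.21), and Plxnd1, a semaphorin receptor (-0.64 ± 0.23). So did Tasp1, a protease (-0.58 ± 0.20), and Hic2, a transcriptional repressor (-0.55 ± 0.19). Pb daughter 2 differed from the other Pb daughters by a median of 0.506 on the log2 scale and had a length trend of -0.357. Without that library Plxnd1 and Tasp1 both stood at -0.46, and Adal at 0.90. The genes of this interaction were picked by its p in these same animals. For Shank1 the log2 fold change was 0.31 in Pb daughters, 0.33 in Mn daughters and 0.07 in Pb + Mn daughters, against the same controls.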

How the data were processed

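Poly(A) RNA of the hippocampus was sequenced in 48 mice with a stranded kit as paired reads, per the labels' protocols. The authors deposited whole-number read counts per gene identifier (57126 identifiers, of which 51884 have a symbol and hold 99.5% of counts). Trim Galore 0.6.9, STAR 2.7.10b, featureCounts 2.0.6 and build GRCm39 are named in the submitters' processing notes. The strand and multimapping settings are not given in the sources used here, and such reads limit antisense genes and genes with near-identical copies.

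The counts were fitted with edgeR 4.0.16 (R 4.3.3; filterByExpr, TMM scaling, quasi-likelihood F test, two-sided) over all 48 libraries with 1 term for each of the 8 groups, and p-values were adjusted by Benjamini-Hochberg over the 16360 genes kept. The threshold was 0.05. The script was tested on simulated data. CPM use TMM-scaled totals, log2 CPM add a prior count of 2, and 95% intervals come from the fitted SE. Library sizes were compared by an exact permutation test of the group means. Replicate libraries differed by more than counting noise in all 30 pairs (chi-square per degree of freedom at least 9.29). 

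Named genes were the 12 higher and 12 lower genes of smallest p whose mean log2 CPM was 0 or more, leaving out unnamed gene models and pseudogenes; up to 2 of smallest p of each list; 15 fixed genes of metal handling, receptors and activity; and 4 for each direction of each interaction. From lists with a median within 0.1 of 0 and no member at an unadjusted p under 0.05, only the member of smallest p is given besides the fixed genes. Members and lists were chosen with earlier results of these data known. Alternatives were DESeq2 1.42.0, limma 3.58.1 voom with and without library weights, other scalings, no filter, the compared groups only, a replicate block, a length covariate, a threshold of 0.10 and leaving out each library; leaving out controls 1 and 5 together was chosen after seeing the data. Promoter letters were read from RefSeq windows of GRCm38.p6, and no coordinates of that build were joined to the counts.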

Additional observations from a re-analysis of the deposited data

Results flagged for a closer look

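In the 12 daughters, single animals stood farther from the other 5 of their group than Dixon's 95% critical value in 31 of 264 groups of values. That value flags about 1 in 20 groups of independent, normally distributed values. Here genes were partly picked by p and lists share members, so 31 cannot be set against a known rate. The flagged values are CPM unless stated, and their causes were not tested.

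Control 5 stood apart in Ifit1 (8.87, others 1.04 to 1.97), Slc39a8 (6.22), Gabra5 (126) and S100a9 (0), in the interferon list (mean log2 CPM 4.12) and in the interneuron list (4.6). Control 1 stood apart in Fbxo6 (16, others 10.9 to 12.3), in the length trend (-0.279), and in mean log2 CPM of the unfolded protein response (6.28), AMPA and kainate receptors (6.41), GABA-A receptors and GABA handling (6.29) and microglia (5.56). Control 4 stood apart in Emx2os (6.30), and control 2 in Lefty1 (0.0404, the others at 0).

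Pb + Mn daughter 6 stood apart in Glb1l (20.4, others 3.07 to 5.97), Cwc22 (36.3, others 12.1 to 16.1), Efhc2 (0.397) and Lefty1 (11.9), and in the CA1 list, of which Lefty1 is a member (mean log2 CPM 5.88, others 4.78 to 5.17). Pb + Mn daughter 3 stood apart in Plin4 (15.3, others 4.00 to 6.39), Mt1 (321, others 147 to 194) and Fos (7.64, others 21.4 to 37.1), so the animal with the highest Plin4 and Mt1 had the lowest Fos. Pb + Mn daughter 1 stood apart in Hmox1 (4.00), Grm3 (54.4) and Igf2 (12.3), daughter 2 in Grin2c (48.5) and Ifit1 (0.429), daughter 4 in Sox10 (73.6), and daughter 5 in Emx2os (2.19), Mcc (10.2) and Zcchc8 (15.9).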

How the results depend on the processing

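No gene passed 0.05 in this comparison or in either interaction under any setting run, including a threshold of 0.10, with 1 exception. With a replicate block and the compared groups only, 1 gene passed, Cwc22 (log2 fold change -2.03, adjusted p 0.0114 by edgeR). Same-numbered control and Pb + Mn daughters deviated together by correlations of -0.144 to 0.072, and none matched its own number best. Whether the numbers stand for a shared litter, batch or order of collection was not tested. The block over all 48 libraries gave 0 genes. The 239 genes at an unadjusted p under 0.05 became 1166 with no filter on low counts, where 36923 genes were tested, and 715 with voom library weights, and lay between 186 (without Pb + Mn daughter 1) and 376 (without control 5) when 1 library was left out; without controls 1 and 5 they were 337. Of 2447 values of named genes under alternatives, 39 changed sign.

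Values that changed sign included large ones, namely Irf7 and Isg15 and the sex interaction of Xist. With the length covariate, Grin1 was -0.08, Grin2a -0.14, Oxtr -0.0361 and Rpl11 0.0602. With voom library weights, Hmox1 was 0, Oxtr -0.0489, Isg15 0.0296 and Gfap 0.0476. Without controls 1 and 5, Hmox1 was 0.0202, Grin2a -0.091, Oxtr -0.15, Irf7 0.11 and Isg15 0.42. Leaving out 1 library gave -0.0644 to 0.11 for Alad, -0.22 to 0.0368 for Hmox1, -0.0546 to 0.075 for Grin1, -0.0221 to 0.0925 for Grin2a, -0.0468 to 0.19 for Oxtr, -0.22 to 0.13 for Fos, -0.18 to 0.0035 for Bdnf, -0.91 to 0.17 for Isg15, -0.30 to 0.0607 for Gfap, and -0.14 to 7.49 for the sex interaction of Xist. The causes were not tested. With 6 animals a group and a median SE of 0.16, differences below about 1.5-fold could not be told from 0 in many genes. Larger estimates also failed the adjusted threshold in the main fit, such as Cwc22 at -2.03 and Edn1 at -1.03. The absence of calls therefore does not exclude differences above 1.5-fold in single genes.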

Other observations

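Over all 48 libraries, Glb1l exceeded 6.87 CPM in Pb + Mn daughter 6 (20.4 CPM) and Pb + Mn son 6 (20.7 CPM). Lefty1, high in 1 of 6 Pb + Mn daughters, was also high in 3 of 6 Pb daughters (7.09, 8.13 and 13.03 CPM), in 2 of 6 Mn daughters (6.14 and 6.98 CPM) and in Pb + Mn son 6 (10.8 CPM). The labels give no litters, so whether these animals are related was not tested. Pb daughter 4 had 0.0684 CPM of Xist and no Ddx3y reads, where the other Pb daughters had 35.1 to 495 CPM of Xist, and it enters the interaction of lead and manganese.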
